A study of Mus musculus with 6 samples.

Results

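The genes described here are 44 developmental transcription factor genes that Polycomb complexes are known to keep silent in many adult tissues, measured in lung cells of Bmi1 wild-type and Bmi1 mutant mice. They were taken by name from a list of 45, as the genes with a probe set that the platform annotation gives to that gene alone, out of 18193 such genes on the array. Pax2 is not analysed here. Homeobox genes of the Lhx, Otx, Dlx, Msx, En and other families, Six2 and Six3, PAX, SOX and T-box genes, Gata3, Gata4 and basic helix-loop-helix genes make up the list. Where a gene had several probe sets, as 19 of the 44 did, the probe set with the highest mean over all 6 arrays stood for the gene, and 72 probe sets were examined in all.

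Polycomb repressive complex 2 places a methyl mark on lysine 27 of histone H3, and complex 1, of which Bmi1 encodes a subunit, binds that mark and compacts the chromatin. Together they hold genes of body patterning off in cells where those genes have no role. Most of the genes here act in the embryonic brain, heart, face, limbs or kidney, and the adult lung is not where they are best known. The question asked of them was how many gave little signal in these cells in both genotypes, and which differed between the genotypes.

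The arrays were Affymetrix Mouse Genome 430 2.0 arrays, 3 from mice labelled Bmi1 wild-type and 3 from mice labelled Bmi1 null, which the titles call mutant. All animals were 4-month-old females of a mixed Bl6/129 background, and the cells went to RNA without culture. Whole lungs were dissociated with enzymes and agarose filling, and live cells lacking the endothelial protein CD31 and the blood cell protein CD45 were sorted. The labels call the 3 samples of a genotype biological replicates but name neither the allele nor the number of mice behind a sample, so the tests below measure the spread between these samples.

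The 6 arrays had median signals from 97.4 to 114, and 47.7% to 50.3% of probe sets lay under 100 on an array. Bmi1 itself did not read lower in the mutant. Its probe sets gave 1047 ± 102 and 588 ± 83.4 in wild type and 1446 ± 151 and 665 ± 147 in the mutant (SD, n = 3). In the first, every mutant array (1276 to 1565) lay above every wild-type array (980 to 1164). The labels do not say whether the probe sets lie in the part that the mutation removes. Each direction therefore rests on the labels. Epithelial markers were bright, with all 9 measured reaching 100, but so were all 8 endothelial, all 13 T cell and natural killer cell and all 5 B cell markers in cells sorted against CD31 and CD45. These are bulk samples, so a change in the number of cells of a type cannot be told apart from a change in RNA per cell.

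Most of the 44 genes gave little signal in either genotype. Of them, 37 (84.1%) lay under a signal of 100 on every array, against 31.1% of all genes measured. The genes that reached 100 on some array were Tbx1, Gata3, Lhx9, Pax9, Hand1, Pax1 and Tbx20. Hand1 and Lhx9 passed that limit narrowly, with highest signals of 100.6 and 109, and Sox21 and Dlx2 stayed narrowly under it at 97.3 and 91.9. Probe sets differ in brightness, so these signals order no genes by their RNA.

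A stricter yardstick came from 71 olfactory and vomeronasal receptor genes, which serve smell and pheromone sensing and are taken here as genes with little or no RNA in lung. Their 95th percentile lay between 24.5 and 33.6 on the 6 arrays, and their median between 2.65 and 8.17. Of the 44 genes, 19 stayed at or under that percentile on all 6 arrays: Lhx1, Lhx2, Lhx5, Pax8, Sox1, Tbx18, Nkx6-1, Irx4, Olig2, Neurog2, Otx1, Otx2, Barhl2, Dlx1, Gsc, Isl1, Msx2, Gbx2 and En1. Over all genes, 13.8% did so. Tbx1, Gata3, Lhx9, Pax6 and Hand1 exceeded it on all 6 arrays, against 68.5% of all genes, and the other 20 exceeded it on some arrays. Pax1 and Msx1 exceeded it on all 3 mutant arrays and on no wild-type array, a pattern that 0.484% of all genes had. Evx1 exceeded it on all 3 wild-type arrays and on no mutant array, as did 0.214% of all genes. The 68.5% of all genes that exceeded it on all 6 arrays could show neither pattern. These shares are therefore no matched background for a list of mostly dim genes, and the yardstick was chosen after seeing the data.

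**Figure D1:**
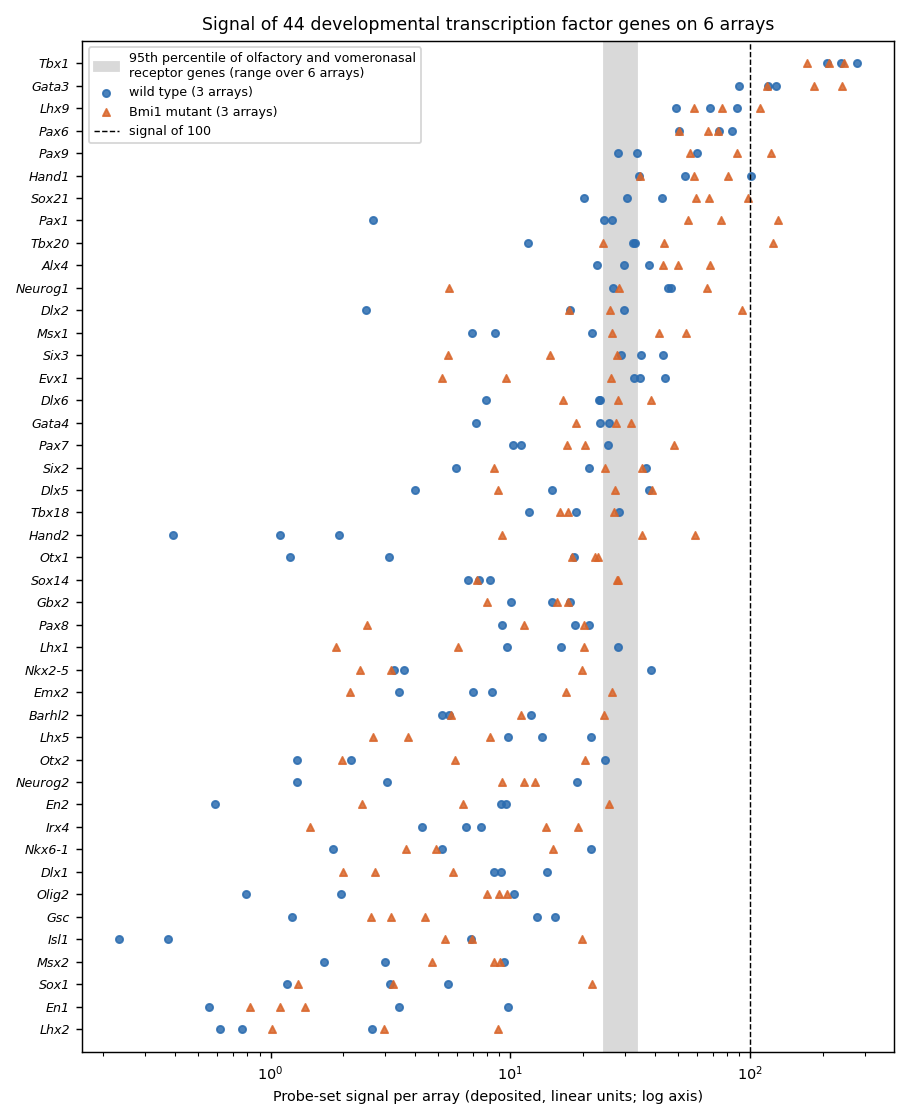
Signal of each of the 44 genes on each array (log axis), with wild-type arrays as circles and Bmi1 mutant arrays as triangles. The grey band is the 95th percentile of olfactory and vomeronasal receptor genes (24.5 to 33.6) and the dashed line a signal of 100; most genes lie left of the line in both genotypes, and Pax1, Hand2 and Msx1 show the triangles to the right of the circles.

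Many of the genes had promoters rich in CpG dinucleotides, though not all did. The 250 bases before the transcription start were taken from RefSeq (GRCm38.p6) for the 36 of 44 genes with an entry, using the first entry where a gene had several. CpG dinucleotides are the sites of DNA methylation in mammals, and stretches rich in them are known as places where Polycomb complexes gather. A list of genes known to be silenced by Polycomb is therefore not independent of CpG content. The 36 promoters held a median of 19 CpG, with a range of 4 to 36, against a median of 6 over 27025 promoters. The median was 5 over the 4364 genes with an entry among the 5654 measured genes under 100 on all arrays. At least 10 CpG were present in 30 of the 36 (83.3%), against 38.2% of all promoters, 31.8% of the low-signal genes and 71.4% of measured genes that reached 100. Under 10 were Lhx9 (4), Pax8 and Otx2 (6 each), Pax9 (7) and Nkx2-5 and Neurog2 (8 each). In the receptor genes, 1 of 58 promoters (1.72%) had that many. Measured genes that reached 100 had a median of 15, so the median of the genes here was above those of both the bright and the dim genes measured.

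**Figure D2:**
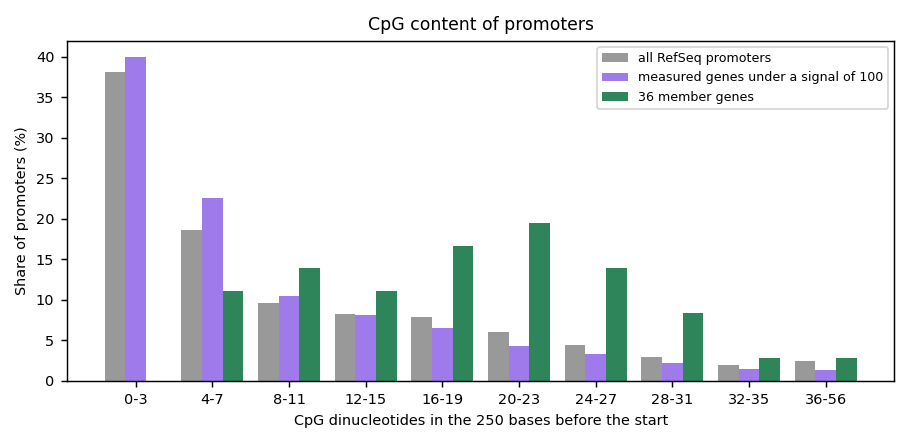
Share of promoters (%) by the number of CpG dinucleotides in the 250 bases before the start. Shown are all RefSeq promoters, measured genes with an entry and under a signal of 100 on all arrays, and the 36 member genes. The member genes peak at 20 to 23 CpG (19.4%), where all promoters have 6.04%.

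The promoters of the 6 genes that the comparison below turns on are printed with each CpG in capitals, followed by that of Barhl2, which had the most CpG of the 36 and little signal on every array.
Pax1 (chr2:147364744-147364993, + strand): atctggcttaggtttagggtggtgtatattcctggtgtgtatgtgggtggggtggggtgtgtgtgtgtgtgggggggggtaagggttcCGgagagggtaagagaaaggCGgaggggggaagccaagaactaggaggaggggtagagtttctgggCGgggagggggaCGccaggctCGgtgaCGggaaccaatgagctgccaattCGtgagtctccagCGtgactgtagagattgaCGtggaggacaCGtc
Pax9 (chr12:56695221-56695470, + strand): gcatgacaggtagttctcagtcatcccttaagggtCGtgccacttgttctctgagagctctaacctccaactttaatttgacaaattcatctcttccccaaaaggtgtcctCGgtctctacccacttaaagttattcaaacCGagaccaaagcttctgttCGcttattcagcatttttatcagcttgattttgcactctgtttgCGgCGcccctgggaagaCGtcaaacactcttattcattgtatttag
Msx1 (chr5:37824586-37824835, - strand): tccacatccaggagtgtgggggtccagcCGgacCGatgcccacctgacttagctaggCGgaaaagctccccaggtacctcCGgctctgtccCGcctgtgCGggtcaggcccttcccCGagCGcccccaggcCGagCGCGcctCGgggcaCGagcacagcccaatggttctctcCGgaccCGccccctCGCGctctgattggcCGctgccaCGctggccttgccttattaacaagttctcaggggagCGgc
Hand2 (chr8:57320733-57320982, + strand): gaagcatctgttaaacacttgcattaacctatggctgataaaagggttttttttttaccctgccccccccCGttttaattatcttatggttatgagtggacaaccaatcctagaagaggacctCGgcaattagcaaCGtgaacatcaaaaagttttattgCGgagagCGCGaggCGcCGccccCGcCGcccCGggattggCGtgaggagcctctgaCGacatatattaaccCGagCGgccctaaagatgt
Sox21 (chr14:118237031-118237280, - strand): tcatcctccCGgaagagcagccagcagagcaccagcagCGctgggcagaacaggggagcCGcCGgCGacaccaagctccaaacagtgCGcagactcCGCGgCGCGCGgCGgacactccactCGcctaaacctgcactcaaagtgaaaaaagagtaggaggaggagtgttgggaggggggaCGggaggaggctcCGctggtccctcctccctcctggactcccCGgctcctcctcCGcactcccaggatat
Evx1 (chr6:52313248-52313497, + strand): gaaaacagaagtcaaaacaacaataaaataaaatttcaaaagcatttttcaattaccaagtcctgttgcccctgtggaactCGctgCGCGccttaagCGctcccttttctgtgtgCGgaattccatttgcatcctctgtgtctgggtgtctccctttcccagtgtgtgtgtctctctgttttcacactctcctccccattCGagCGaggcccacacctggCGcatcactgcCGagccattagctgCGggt
Barhl2 (chr5:106458167-106458416, - strand): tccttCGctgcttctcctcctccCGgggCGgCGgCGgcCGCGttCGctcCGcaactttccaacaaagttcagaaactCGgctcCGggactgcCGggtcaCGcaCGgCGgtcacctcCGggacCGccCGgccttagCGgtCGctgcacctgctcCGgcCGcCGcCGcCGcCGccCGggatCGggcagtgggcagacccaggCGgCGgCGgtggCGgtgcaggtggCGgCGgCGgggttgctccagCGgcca
The counts are 10 CpG in Pax1, 7 in Pax9, 20 in Msx1, 15 in Hand2, 17 in Sox21, 10 in Evx1 and 36 in Barhl2. The 4 genes with an entry whose arrays lay wholly higher in the mutant had a median of 16 CpG, the 3 wholly lower a median of 10, and the 29 whose arrays overlapped a median of 22. The motif TAATTA, the core that many homeodomain proteins bind and its own reverse complement, was found in 4 of the 36 windows (11.1%), Hand2 among them, and in 4.90% of all promoters. TATAAA, searched on both strands, was found in 3 (8.33%), against 12.97% of all promoters.

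Between the genotypes, none of the 44 genes passed the test when each was represented by its chosen probe set. The values were compared as log2(signal + 16) with limma, mutant minus wild type, with Benjamini-Hochberg adjustment over all 18193 genes. At an adjusted p under 0.05, 0 of 44 were called, where 0.923% of all genes and 0.371% of genes under 100 on all arrays were called. At an unadjusted p under 0.05 there were 11 of 44 (25%), against 14.5% of all genes. The smallest adjusted p among the 44 was that of Pax1 (0.134). In 9 of 44 genes the 3 arrays of each genotype did not overlap, the same share (20.5%) as the 20.5% over all genes, and above the 12.4% of genes under 100 on all arrays. Mutant arrays were higher in Pax1, Hand2, Msx1, Sox21 and Alx4. These are 5 of 44, against 10.4% of all genes and 6.63% of those low-signal genes. Mutant arrays were lower in Evx1, Six3, Lhx5 and Dlx1, 4 of 44, against 10% and 5.78%. All of the 9 but Dlx1 also had a log2 difference of at least 0.5 in either direction. That is 8 of 44, against 12.4% of all genes and 8.90% of the low-signal genes. Over the 72 probe sets, 13 separated the genotypes, where 19.6% of all single-gene probe sets did.

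The median log2 difference over the 44 genes was 0.24, with 29 above 0 and 15 below, while the median over all genes and over low-signal genes was 0.01. This median moved with the number added before taking logs, to 0.63 at an offset of 1 against 0.092 at 64, and with single arrays. Leaving out wild-type replicate 3 gave 0.10, and leaving out mutant replicate 2 gave 0.14. Mutant replicate 2 held the highest signal for 13 of the 44 genes, where it did so for 20.4% of all genes. Wild-type replicate 3 held the lowest signal for 13, a count for which no share over all genes was taken. By role, the medians ran from 0.01 for the 16 neural patterning genes to 0.47 for the 10 genes of face, limb and skeleton.

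**Figure D3:**
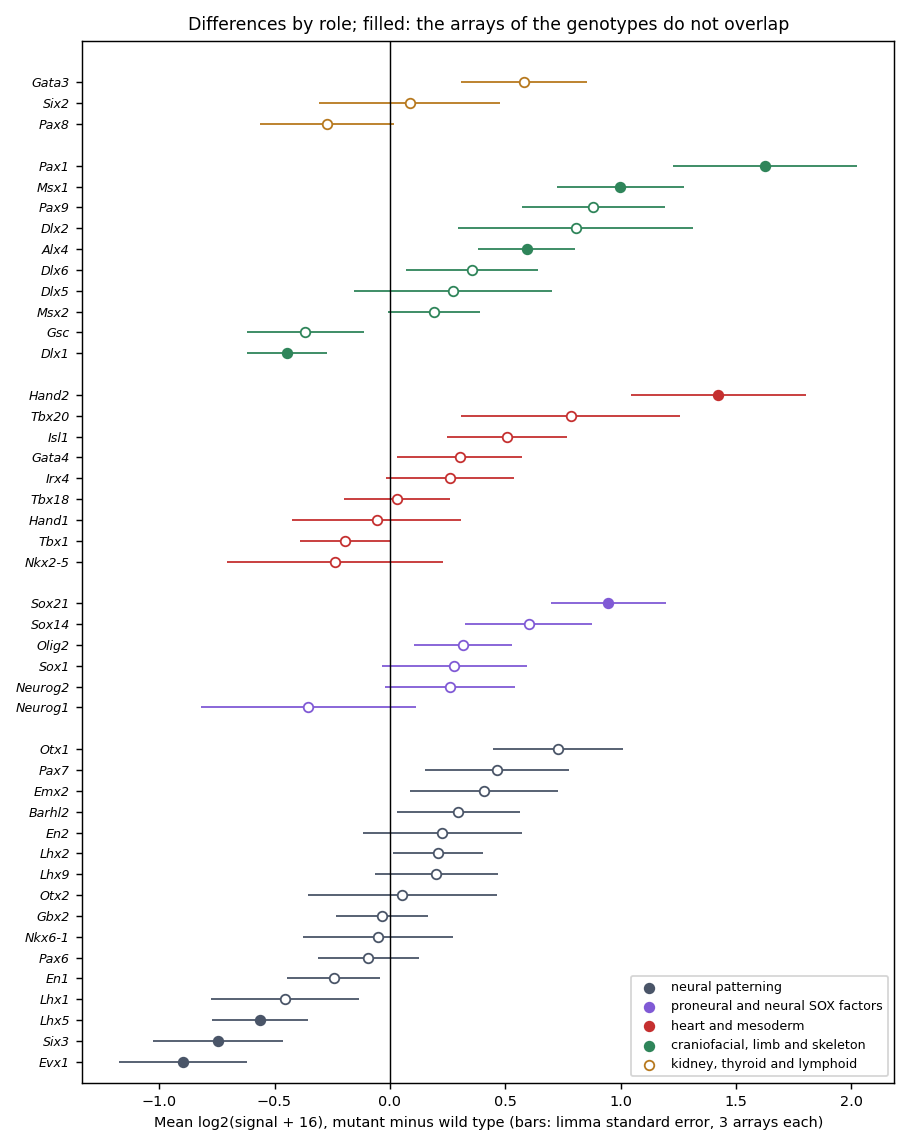
Mean log2(signal + 16) of the mutant minus that of wild type for each of the 44 genes, grouped by role, with limma's standard error (3 arrays per genotype). Filled symbols mark the 9 genes whose arrays do not overlap between genotypes; Pax1 at 1.63 and Hand2 at 1.42 lie farthest right and Evx1 at -0.90 farthest left.

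Of the 10 genes of the face, limb and skeleton, 4 (40%) separated the genotypes, 3 higher and 1 lower in the mutant, beside 20.5% of all genes, with no test of the group. Pax1, a paired box factor of the vertebral column and the pharyngeal pouches, had signals of 26.6, 2.68 and 24.6 on the wild-type arrays and 75.1, 55.1 and 131 on the mutant arrays. Every mutant array lay above every wild-type array, and the highest value was that of mutant replicate 3. For this probe set (1449359_at) the log2 difference was 1.63 ± 0.40 (SE, n = 3 per genotype, limma adjusted p = 0.134). Its other probe set showed no such pattern, at 16.1, 8.16 and 5.99 in wild type and 15.4, 5.29 and 9.89 in the mutant, a log2 difference of 0.01.

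Pax9, the closest relative of Pax1 and a regulator of teeth, palate and thymus, had 3 probe sets, and what they show depends on which is read. The probe set that stood for the gene read 60.01, 33.6 and 28.1 in wild type and 88.2, 122 and 56.3 in the mutant, so that mutant replicate 3 overlapped wild-type replicate 1 (log2 difference 0.88 ± 0.31, limma adjusted p = 0.263). The dimmest in wild type, 1442229_at, read 3.32, 1.05 and 3.08 against 32.1, 44.3 and 55.8. There the genotypes were far apart, and in a limma fit of all 34945 single-gene probe sets, of which 0.469% were called, this probe set rose by 1.68 ± 0.20 (SE, n = 3 each, adjusted p = 0.0309). It was the only 1 of the 72 probe sets called in that fit. The third read 2.91, 3.01 and 4.78 against 34.3, 4.18 and 48.5, with mutant replicate 2 among the wild-type values. With the mean of all probe sets in place of the highest, Pax9 was called as a gene (log2 difference 1.20, adjusted p = 0.0285), the only member called in any of the fits tried. Since the 1442229_at result was singled out after the values of all probe sets were seen, it stands as 1 of 72.

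Msx1, a homeobox repressor active in tooth, palate and limb buds, behaved alike in both of its probe sets. The chosen probe set read 22.0, 6.92 and 8.63 in wild type and 54.0, 26.5 and 41.5 in the mutant (log2 difference 1.00 ± 0.28, limma adjusted p = 0.170). The other read 14.3, 5.68 and 8.28 against 35.6, 30.3 and 28.8, a difference of 0.92 with an adjusted p of 0.111 among probe sets. In both, every mutant array was higher than every wild-type array. The name of the chosen probe set ends in _s_at, which on this platform marks probes that can match more than a single transcript.

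Alx4, a homeobox factor of limb and skull, read 37.9, 22.9 and 29.6 in wild type and 68.1, 50.1 and 43.1 in the mutant. The groups did not overlap, and the log2 difference was 0.59 ± 0.21 (limma adjusted p = 0.266). Dlx1 also separated the genotypes, with lower mutant signals, but its highest signal on any array was 14.2. The remaining distal-less genes, Dlx2 (0.81), Dlx5 (0.27) and Dlx6 (0.36), and Msx2 (0.19) and Gsc (-0.37), had overlapping arrays. Dlx2, next to Dlx1 on its chromosome, read 91.9 on mutant replicate 2 against 17.5 and 26.0 on the other mutant arrays.

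Cartilage and bone markers gave little signal beside these genes: all 6 measured, among them Acan, Col2a1 and Sp7, stayed under 100, and their summed signal was 155 to 167 in wild type and 172 to 263 in the mutant. All 6 differences were above 0 and none was called. Acan alone of the 6 separated the genotypes, with higher mutant signals (log2 difference 0.77, limma adjusted p = 0.280). Of 3 thymus epithelium markers, Foxn1 and Psmb11 stayed under 100. Fibroblast markers were bright, with a summed signal of 18449.8 to 33651.5 in wild type and 40843.7 to 41983.3 in the mutant, all 9 differences above 0 and 1 called. Smooth muscle and pericyte markers ran from 3311.86 to 10091.7 in wild type and from 11387.4 to 13905.8 in the mutant, with 9 of 10 differences above 0. No marker of either list was under 100 on all arrays. The part of these cells in the signals of Pax1, Pax9, Msx1, Alx4 and Hand2 was not tested.

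**Figure D4:**
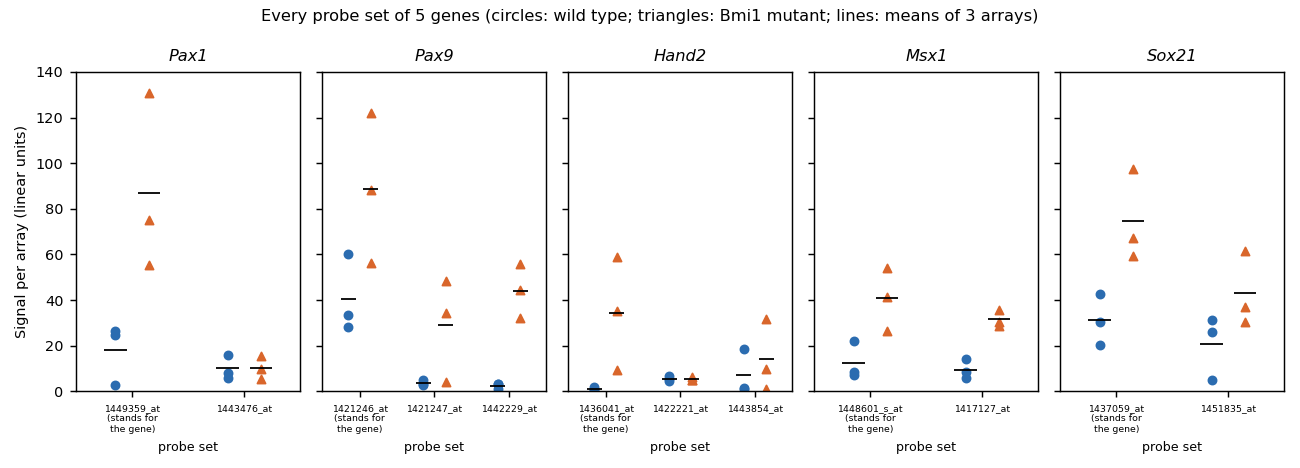
Signal per array (linear axis) for every probe set of Pax1, Pax9, Hand2, Msx1 and Sox21, with wild-type arrays as circles, mutant arrays as triangles and means as lines. Both Msx1 probe sets separate the genotypes, whereas in Pax1 and Hand2 only the probe set that stood for the gene does so.

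Among 9 genes of the heart and mesoderm, Hand2 was the 1 whose arrays separated the genotypes. This basic helix-loop-helix factor of the heart, limb buds and sympathetic neurons read 0.39, 1.93 and 1.09 in wild type and 35.3, 9.26 and 58.8 in the mutant. Wild-type signals were near 0, and the mutant signals differed among themselves, with replicate 2 low. The log2 difference was 1.42 ± 0.38 (limma adjusted p = 0.156). Leaving out 1 array gave limma adjusted p values from 0.0506 (without mutant replicate 2) to 0.336 (without wild-type replicate 2). Every omission other than that of mutant replicate 2 gave a larger adjusted p than the fit of all 6 arrays. Its other probe sets did not separate the genotypes, with log2 differences of -0.0037 and 0.35. With so little signal in wild type the size of the difference follows the offset: it was 3.78 at an offset of 1 against 0.56 at 64.

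Tbx1, the T-box gene of the pharyngeal arches and outflow tract, read 279.5, 238 and 208 in wild type and 172, 246 and 213 in the mutant. The groups overlapped, and the log2 difference was -0.19 ± 0.20 (limma adjusted p = 0.725). Hand1, a relative of Hand2 in heart and placenta, read 100.6, 53.6 and 34.5 against 34.7, 80.7 and 58.0, with both groups over the same range. Its log2 difference of -0.06 turned to 0.27 without wild-type replicate 1 and to 0.19 without mutant replicate 1. Tbx20, a T-box factor of heart muscle and valves, read 11.8, 33.1 and 32.3 against 43.5, 124 and 24.4 (log2 difference 0.78, adjusted p = 0.516), and mutant replicate 2 alone exceeded 50. The Tbx20 difference was 0.28 without mutant replicate 2, 1.18 without mutant replicate 3, 0.51 without wild-type replicate 1 and 0.14 with the mean of its probe sets, of which the others differed by 0.03 and -0.38. Isl1 (0.51), Gata4 (0.30), Irx4 (0.26), Tbx18 (0.03) and Nkx2-5 (-0.24) did not exceed 38.7 on any array.

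Mouse lung holds heart muscle in the sleeves of its pulmonary veins, so heart muscle markers were read beside these factors. Of 11 markers, 6 stayed under 100 on all arrays, among them the atrial genes Nppa, Sln and Myl7, and none of the 11 was called. Tnnt2 read 256, 280 and 84.2 in wild type and 1127, 398 and 897 in the mutant (log2 difference 1.91, limma adjusted p = 0.172), and Actc1 read 667, 281 and 99.1 against 1141, 441 and 1053. Over the 11, 6 differences were above 0 and 5 below, and the arrays separated the genotypes in Tnnt2, higher in the mutant, and Actn2, lower in the mutant (log2 difference -1.57, adjusted p = 0.0956). The summed signal of the 11 was 822 to 1591 in wild type and 1606 to 2688 in the mutant, and its part in the Hand2 signal was not tested.

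Of the 16 neural patterning genes, 3 (18.75%) separated the genotypes, all lower in the mutant and dim, beside 10% of all genes and 5.78% of low-signal genes that did so in that direction. The group was not tested. Evx1, a homeobox factor of spinal interneurons and the early primitive streak, read 34.5, 43.9 and 32.7 in wild type and 5.16, 9.57 and 26.3 in the mutant. All mutant arrays were lower, with mutant replicate 3 nearest to wild type, and the log2 difference was -0.90 ± 0.28 (limma adjusted p = 0.210). Six3, a forebrain and eye factor, read 43.4, 34.9 and 28.8 against 5.49, 27.9 and 14.6 (log2 difference -0.74, adjusted p = 0.297). Its other probe sets differed by 0.11 and 0.32, opposite in sign, and the mean of its probe sets gave -0.10. Lhx5, a LIM homeobox factor of the forebrain, read 21.7, 9.77 and 13.6 against 2.68, 3.73 and 8.19 (log2 difference -0.56, adjusted p = 0.282), where no array exceeded the level of the receptor genes.

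Lhx9, a LIM homeobox factor of the gonad and forebrain, had signals of 67.8, 87.6 and 48.8 in wild type and 75.9, 109 and 58.4 in the mutant. The groups covered the same range (log2 difference 0.20, limma adjusted p = 0.794), and its 3 other probe sets did not exceed 21.3. Pax6, the eye and forebrain paired box factor, behaved in the same way, between 50.6 and 83.5 in wild type and between 50.4 and 73.4 in the mutant. Of its 4 unchosen probe sets, 1419271_at separated the genotypes, at 15.5, 18.98 and 11.7 in wild type and 24.9, 21.4 and 28.9 in the mutant (log2 difference 0.39, adjusted p = 0.397 among probe sets). Otx1 (0.73), Pax7 (0.46), Emx2 (0.41), Barhl2 (0.30), En2 (0.23), Lhx2 (0.21), Otx2 (0.05), Gbx2 (-0.03), Nkx6-1 (-0.05), En1 (-0.24) and Lhx1 (-0.45) had overlapping arrays. None of these 11 exceeded 48.0 on any array.

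In the group of proneural and neural SOX genes, Sox21 was the member that separated the genotypes. Sox21, a repressor of neural progenitor genes that is also known in airway and skin epithelium, read 30.5, 20.3 and 42.6 in wild type and 59.3, 97.3 and 67.3 in the mutant. No array overlapped, and the log2 difference was 0.95 ± 0.25 (limma adjusted p = 0.151). Its other probe set read 26.2, 5.02 and 31.2 against 30.2, 36.8 and 61.6, with mutant replicate 1 inside the wild-type range. Sox14 (0.60), Olig2 (0.32), Sox1 (0.28), Neurog2 (0.26) and Neurog1 (-0.35) overlapped, and 3 of these 5 never exceeded the level of the receptor genes. Epithelial markers, some of whose cells are known to make Sox21, had a summed signal of 69601.8 to 74362.5 in wild type and 75426.2 to 83913 in the mutant, with none of 9 called.

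Gata3, the zinc finger factor of T cells, innate lymphoid cells and kidney ducts, was among the genes with signal on all arrays. It read 128, 119 and 89.5 in wild type and 185, 241 and 118 in the mutant, overlapping at mutant replicate 3 (log2 difference 0.58 ± 0.27, limma adjusted p = 0.394). T cell, natural killer and innate lymphoid markers went the other way: all 13 measured had differences below 0 and 5 were called lower, with a summed signal of 26200.8 to 39041.6 in wild type and 13320.4 to 15668.2 in the mutant. Their part in the Gata3 signal was not tested. Six2 (0.09), of the kidney progenitors, and the thyroid and kidney factor Pax8 (-0.27) had overlapping arrays. In Pax8 a second, unchosen probe set read 13.5, 19.4 and 27.7 in wild type and 2.76, 2.37 and 1.55 in the mutant, a difference of -0.97 with an adjusted p of 0.105 among probe sets.

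Chromosome neighbours put a few of these genes beside called ones. The nearest measured protein-coding gene on each side of each of the 44 was found by its order in RefSeq (GRCm38.p6), a comparison chosen after the results were seen. Of 82 such neighbours outside the list, 3 were called, where 0.923% of all genes were: Nkx2-2 beside Pax1 and Hoxa13 beside Evx1 rose, and the B cell kinase gene Blk beside Gata4 fell. The arrays separated the genotypes in 14 of the 82 (17.1%), beside 20.5% of all genes. Nkx2-2, a homeobox factor of the ventral neural tube and pancreas, read 26.7, 17.8 and 19.9 in wild type and 666, 836 and 934 in the mutant (log2 difference 4.46, limma adjusted p = 0.00156). On the other side of Pax1, the endoderm factor Foxa2 read 343 to 568 in wild type and 364 to 601 in the mutant (0.17, adjusted p = 0.840). The arrays thus separated the genotypes at Nkx2-2 and at 1 of the 2 Pax1 probe sets, and overlapped at Foxa2. The other Pax1 probe set differed by 0.01, and the mean of both gave 0.82.

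Evx1 lies at the end of the HoxA cluster, next to Hoxa13, the factor of the most posterior limb and gut. Hoxa13 read 2.36, 17.2 and 1.89 in wild type and 90.5, 128 and 96.4 in the mutant (log2 difference 2.43, limma adjusted p = 0.0225), while Evx1 was lower on every mutant array. The gene on its other side, Hibadh, a metabolic dehydrogenase gene, read 2862 to 3241 in wild type and 2825 to 3416 in the mutant. For Pax9 the measured neighbours were Nkx2-9, which stayed at or under 18.6, and Prps1l3, with a log2 difference of -0.07. Among adjacent members, Dlx1 and Dlx2 had differences of opposite sign, as did Six2 and Six3, and the arrays of Dlx5 and Dlx6 overlapped.

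**Figure D5:**
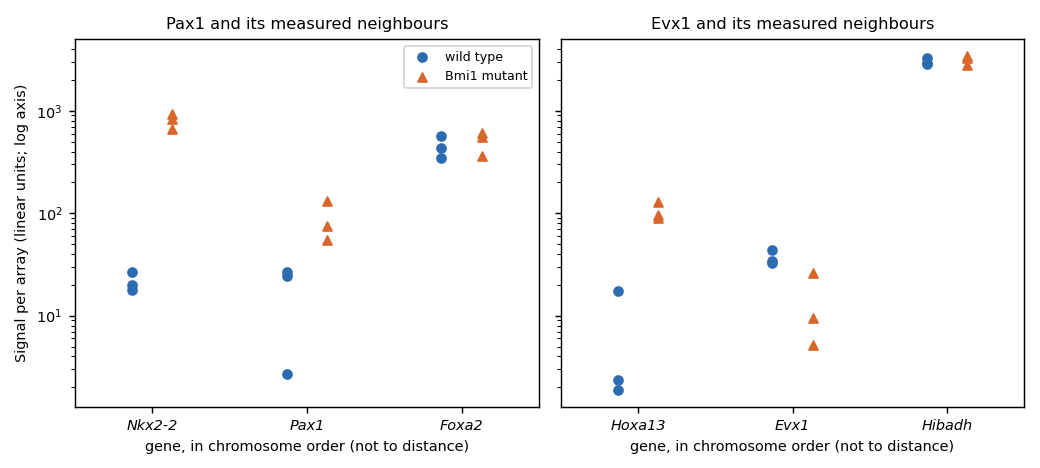
Signal per array (log axis) of Pax1 and Evx1 with their nearest measured protein-coding neighbours, in chromosome order but not to distance. Nkx2-2 reads 666 to 934 on the mutant arrays against 17.8 to 26.7 on the wild-type arrays, and the mutant arrays are higher at Pax1 and Hoxa13 and lower at Evx1.

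Other targets of Polycomb repression on the same arrays included called genes. Of 33 measured Hox genes, 7 were called higher, where 0.412% of all genes were, and 17 stayed under 100 on all arrays. The arrays of 15 Hox genes (45.5%) separated the genotypes, beside 20.5% of all genes. The 4 regulators Nkx2-2, Tfap2a, Pax3 and Tbx15, which were listed because they rose in these data, were all called, so that their count is not independent evidence. Beside them the 44 genes had 0 calls and 9 (20.5%) that separated the genotypes. The 44 leave out those 4 regulators, so their 0 calls are not independent of how the lists were drawn. These counts are set side by side without a test of the lists against each other.

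The machinery itself gave no call. Of 17 measured complex 1 subunits and 11 of complex 2, 0 were called by limma. At an unadjusted p under 0.05 there were 4 (23.5%) and 1 (9.09%), beside 14.5% of all genes. Their median log2 differences were 0.06 and -0.20. Kdm2b, the subunit that binds CpG-rich DNA, read 875, 1030 and 940 in wild type and 538, 520 and 676 in the mutant (log2 difference -0.71, adjusted p = 0.136). Cbx6, a reader of the histone mark, read 3277, 3179 and 3425 against 5201, 4986 and 4665 (0.58, adjusted p = 0.142), and neither gene had overlapping arrays. With Bmi1, higher on every mutant array, they were the 3 of 17 (17.6%) that separated the genotypes, beside 20.5% of all genes. In complex 2, 9 of 11 differences were below 0, and Eed (-0.20), Suz12 (-0.31) and Mtf2 (-0.51, adjusted p = 0.288) read lower on every mutant array, a share of 27.3% beside 10% of all genes in that direction. Ezh2, the main methyltransferase of complex 2, differed by -0.33 (adjusted p = 0.581), with overlapping arrays.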

How the data were processed

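RNA of sorted lung cells was amplified to cDNA, labelled with biotin and hybridised to 1 array per sample. The authors deposited linear probe-set intensities. The software was Affymetrix Expression Console, version 1.1, per the submitters' processing notes. How probes were summarized is not given in the sources used here, and no detection calls were used. Each array had the same 2% trimmed mean, 500.002, so a shift of all genes together cannot be seen. The number of arrays limits the precision.

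Of 45101 probe sets, 64 controls were left out, and 34945 named 1 gene by the platform annotation. Genes were fitted as log2(signal + 16) in limma 3.58.1 (lmFit, then eBayes; R 4.3.3) without covariates (prior degrees of freedom 2.93). Gene-level adjusted p values come from this fit unless another fit is named. It was also run on simulated data, and an absent call does not show that a gene did not differ. A two-sided exact permutation test cannot go below 0.1 here, the value of each probe set whose genotypes did not overlap.

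Per-array values were given for members that were called, that separated the genotypes with a log2 difference of at least 0.5, or that reached 100. Members and lists were chosen with earlier results of these data known. Other scalings, offsets, filters, probe-set rules, variance priors, array weights, the replicate block and leaving out each array were tried.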

Additional observations from a re-analysis of the deposited data

How the results depend on the processing

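Of 16 other fits, 15 called none of the 44 genes, and the mean of all probe sets called 1, Pax9. The fit of all single-gene probe sets also called 1 (Pax9, adjusted p = 0.0309). Of the 14 genes given by array, 13 kept their direction in every fit; Hand1 (-0.06) turned to 0.27 without wild-type replicate 1 and to 0.19 without mutant replicate 1. It was lowest at -0.37 with the mean of its probe sets, of which the unchosen differed by -0.69, and at -0.34 among fits leaving out 1 array (wild-type replicate 3). The median difference of the 44 moved to 0.63 at offset 1 and to 0.092 at offset 64, and ranged from 0.10 to 0.34 when 1 array was left out. The count of genes that separated the genotypes ranged from 11 to 17 without 1 array, where fewer arrays can overlap and the share of all genes was 28.6% to 33.2%. It was 11 of 44 without wild-type replicate 1 (32.0% of all genes) and 17 of 44 without wild-type replicate 2 (28.9%), and was 0 of the 2 members left by the filter to a signal of 100 on 3 arrays. The count over all genes was 168, and 38 at offset 1, 264 at offset 64, 341 with that filter, 438 with an intensity-dependent robust prior, 455 at an adjusted p under 0.10 and 2 to 76 without 1 array.

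With the replicate number as a block limma called 0 of all genes, with 2611 at an unadjusted p under 0.05, and the smallest adjusted p of a member was 0.102 (Pax1). Same-numbered samples share only a number: their deviations correlated at 0.073, 0.048 and 0.032, though each correlated best with its own number. The 37 genes under 100 on all arrays became 30 under a limit of 50, 42 under 200 and 19 under the receptor level, a limit chosen after seeing the data. Signals this low are near those of the receptor genes, which limits what can be said of single dim genes.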

Other observations

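Transcription factors of the adult and developing lung, which are not in the list above, were read on the same arrays. All 24 measured reached 100 and none was called by limma. Their median log2 difference was 0.58, with 20 above 0 and 4 below, beside 0.24 for the 44 genes and 0.01 over all genes. An unadjusted p under 0.05 was found in 8 (33.3%), beside 14.5% of all genes, and 8 had every mutant array above every wild-type array. Sox9, a factor of distal lung buds and cartilage, read 49.1, 46.7 and 12.7 in wild type and 245, 124 and 312 in the mutant (log2 difference 2.22 ± 0.43, limma adjusted p = 0.0748). Foxj1, the regulator of motile cilia, read 1537, 1503 and 1136 against 2307, 2579 and 1846 (0.68 ± 0.21, adjusted p = 0.204). Sox2, a factor of the airway epithelium, read 259, 311 and 237 against 553, 336 and 404 (0.63 ± 0.23, adjusted p = 0.273). Over all genes, every mutant array was above every wild-type array in 10.4%.

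Summed signals of the other marker lists, wild type before mutant, were as follows. B cell markers ran from 4450.66 to 5584.8 and from 644 to 972, with all 5 measured called lower. Endothelial markers ran from 13238.2 to 23075.2 and from 17285.9 to 19375.8, mesothelial markers from 7150.78 to 8240.67 and from 6636.03 to 6721.91. Brown fat markers ran from 1614.86 to 2396.3 and from 885 to 1120.91, and neuroendocrine markers from 493 to 553 and from 355 to 418. Glial and neural crest markers ran from 1611.33 to 1723.06 and from 1601.68 to 1962.34, and skeletal muscle markers from 265 to 314 and from 252 to 344. Several of these markers stayed under 100 on all arrays. They were 2 of 3 brown fat, 2 of 4 neuroendocrine, 3 of 5 glial and neural crest, 6 of 8 skeletal muscle and 1 of 6 mesothelial markers. Apart from the B cell markers, limma called none of the genes of these lists.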
